A study of Mus musculus with 9 samples.

Results

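Hmox1 and 9 further genes of the Nrf2 antioxidant response (Nqo1, Gclc, Gclm, Srxn1, Txnrd1, Gsr, Osgin1, Nfe2l2 and Keap1) were followed across all 9 arrays of the series. The genes were chosen by symbol, with earlier results of these data known. Each has 1 probe set on the array, and all 10 are among the 9864 genes bright enough to be tested, of 19938 genes with a probe set of their own. The arrays hold total RNA of C2C12, an established line of mouse myoblasts, grown in serum-containing medium and given control siRNA, siRNA against Cugbp1 or siRNA against Mbnl1. Transcription was then stopped with actinomycin D at 5 ug/ml in all cultures, and RNA was taken at 0, 2.5 and 5 h. All 3 arms therefore share the cell line, an siRNA treatment and the drug, and no culture without siRNA was used here. Cugbp1 (symbol Celf1) and Mbnl1 are RNA-binding proteins that control splicing and the stability of messenger RNAs, and both are known for their part in myotonic dystrophy. The design sets the 3 arms side by side at each time after transcription was stopped.

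Nrf2, the product of Nfe2l2, is a transcription factor that is held at a low level by Keap1, an adaptor that hands it to a ubiquitin ligase for destruction. Oxidants and electrophiles modify Keap1, Nrf2 then accumulates, pairs with a small Maf protein and binds antioxidant response elements near its target genes. The targets make and recycle glutathione, reduce quinones and thioredoxin, break down haem and supply NADPH. Hmox1 is also under the repressor Bach1, which competes for the same elements and is released by haem.

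There was 1 array for each siRNA and time, so no condition has a replicate culture. An effect of an siRNA was taken over its 3 arrays against the 3 of the other arm, and an effect of time over the 3 arms. The standard errors (SE) come from a limma fit of log2 intensity on siRNA and time. They measure the variation of siRNA effects between times, which may be technical, and not the variation between cultures. A gene was called when its Benjamini-Hochberg adjusted p over all 9864 genes was under 0.05. Array medians lay between 104.92 and 113.01, and arrays correlated pairwise at 0.9799 to 0.9954. Celf1 was 4.08-fold lower under Cugbp1 siRNA and Mbnl1 5.39-fold lower under Mbnl1 siRNA than under control siRNA, in the direction of the labels. Celf1 was also lower under Mbnl1 siRNA, by 0.59 ± 0.09 (SE) on the log2 scale (limma adjusted p = 0.000931), and stood between the other arms. Of 6 myoblast markers 5 were above the filter, with Myog below it, and all 3 hepatocyte and all 3 endothelial markers lay below it. Above it were also 5 of 6 differentiated muscle, 4 of 5 fibroblast and 2 of 7 macrophage markers, so passing the filter does not single out myoblast markers.

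The promoters of these genes are shown first, since Nrf2 acts through a short DNA element. RefSeq windows from 250 bases before to 50 bases after the start of transcription (GRCm38.p6) matched 7 of the 10 genes, not Hmox1, Gclc or Gsr, with 9 windows in all. Each window was searched on both strands for the core of the antioxidant response element, TGACNNNGC, which reads GCNNNGTCA on the opposite strand and whose first bases are shared with AP-1 sites. The core was present in 4 of the 7 genes (57.1%), against 14% of all 27025 genes with a window, and in 4 of the 9 windows (44.4%), against 12.4% of all windows. The stretches that hold it are given 5′ to 3′ in the direction of the gene, with the match in capitals.
Gclm, chr3:122245307-122245556, plus strand: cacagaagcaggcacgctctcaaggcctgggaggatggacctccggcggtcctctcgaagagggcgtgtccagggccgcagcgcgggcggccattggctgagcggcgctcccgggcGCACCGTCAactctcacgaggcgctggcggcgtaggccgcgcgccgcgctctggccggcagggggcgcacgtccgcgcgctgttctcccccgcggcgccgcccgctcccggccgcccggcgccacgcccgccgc
Txnrd1, chr10:82858956-82859205, plus strand: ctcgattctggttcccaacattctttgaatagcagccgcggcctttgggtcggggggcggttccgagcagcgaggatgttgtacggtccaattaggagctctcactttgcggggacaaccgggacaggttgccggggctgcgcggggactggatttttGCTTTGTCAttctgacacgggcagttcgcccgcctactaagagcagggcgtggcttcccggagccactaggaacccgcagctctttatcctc
Nfe2l2, chr2:75704664-75704913, minus strand: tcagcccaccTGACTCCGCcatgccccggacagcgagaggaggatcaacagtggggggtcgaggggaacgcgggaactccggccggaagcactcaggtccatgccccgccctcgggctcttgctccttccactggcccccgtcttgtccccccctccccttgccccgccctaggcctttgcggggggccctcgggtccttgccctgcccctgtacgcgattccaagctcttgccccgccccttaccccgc
Srxn1, chr2:152105542-152105570, plus strand: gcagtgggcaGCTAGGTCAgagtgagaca
The match lay at -134 to -126 from the start in Gclm, at -92 to -84 in Txnrd1 and at -240 to -232 in Nfe2l2. In Srxn1 it lay at 29 to 37 after the start. Txnrd1 has 3 annotated starts, and the window of the middle one alone held a match. The windows of Nqo1, Osgin1 and Keap1 did not contain these letters. A match is a description of the letters and not a measured binding site, and elements farther from the start lie outside these windows.

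Hmox1 encodes haem oxygenase-1, which opens the haem ring to give biliverdin, iron and carbon monoxide. With control siRNA its intensity was 1025 at 0 h, 897 at 2.5 h and 865 at 5 h. Under Cugbp1 siRNA it was 2157, 2141 and 2437, and under Mbnl1 siRNA it was 1827, 1614 and 1462. The 3 arms did not overlap: every Cugbp1 array lay above every Mbnl1 array, and every Mbnl1 array above every control array. The mean difference from control was 1.27 ± 0.09 (log2, SE) under Cugbp1 siRNA, a 2.42-fold higher level (limma adjusted p = 0.000125), and only 5 of the 9864 tested genes differed by more between these arms. Under Mbnl1 siRNA it was 0.81 ± 0.09, or 1.76-fold (adjusted p = 0.000127). The 2 knockdown arms differed from each other by -0.46 ± 0.09 (Mbnl1 minus Cugbp1, adjusted p = 0.00233), with -0.24 at 0 h, -0.41 at 2.5 h and -0.74 at 5 h. So in the order Cugbp1, Mbnl1, control, each neighbour differed beyond the residual spread. The ratio to control at the same time was 2.10, 2.39 and 2.82 at 0, 2.5 and 5 h under Cugbp1 siRNA. The 3 comparisons share arrays and are not independent of each other. Hmox2, the constitutive haem oxygenase, differed from control by 0.02 under Cugbp1 and 0.05 under Mbnl1 siRNA and was not called in either.

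**Figure D1:**
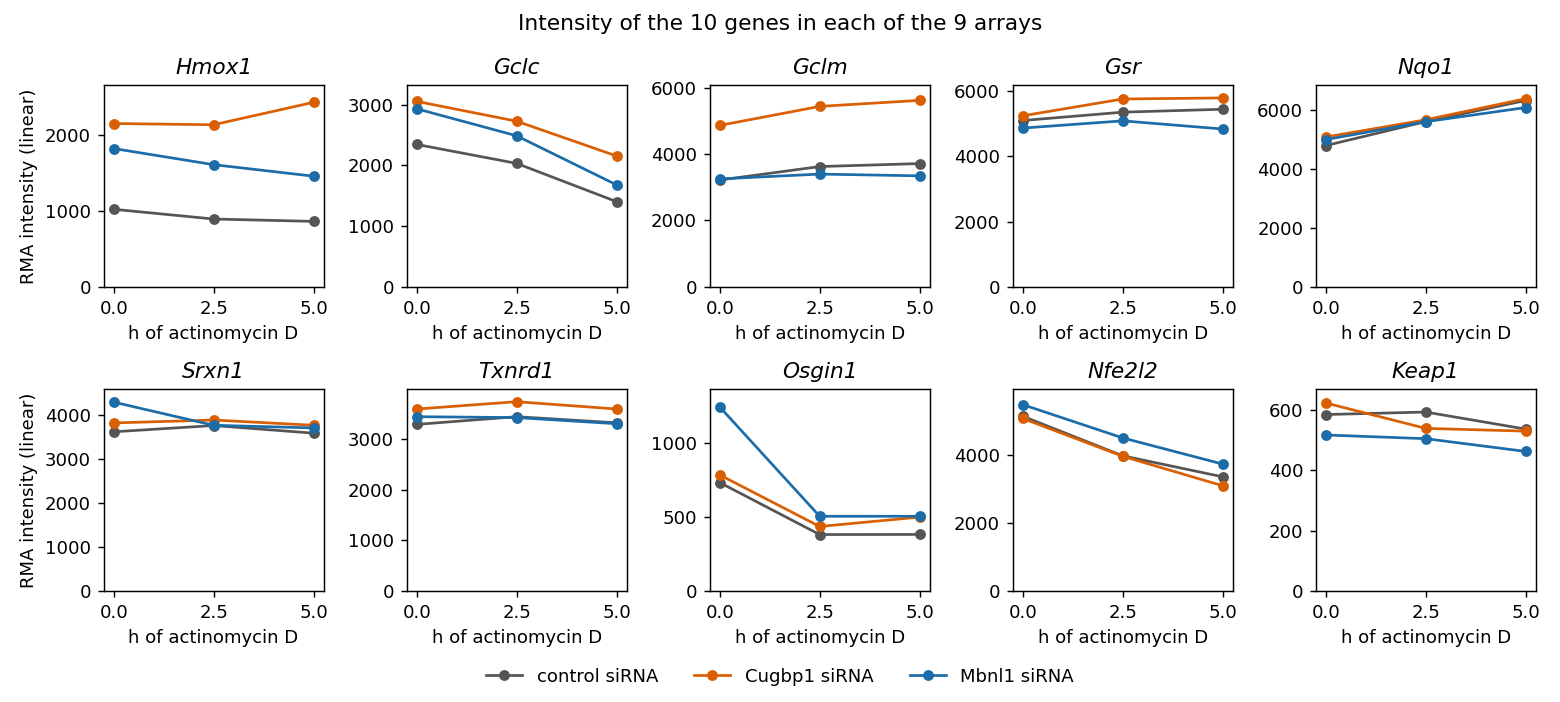
RMA intensity on a linear scale from 0 (y axis) against hours after actinomycin D (x axis), 1 panel per gene and 1 line per siRNA, with 1 array per point and no error bar. Hmox1 forms 3 separate lines, Gclm has the Cugbp1 line apart at 4860 to 5614 against 3217 to 3712 with control siRNA, and the lines of Nqo1 lie on each other.

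Gclc and Gclm are the catalytic and the modifier subunit of glutamate-cysteine ligase, the rate-limiting enzyme of glutathione synthesis. Gclm had intensities of 3217, 3622 and 3712 at 0, 2.5 and 5 h with control siRNA. Under Cugbp1 siRNA it read 4860, 5432 and 5614, and under Mbnl1 siRNA 3250, 3395 and 3343. All Cugbp1 arrays lay above all 6 others, while the control and Mbnl1 arrays overlapped. Gclm was higher under Cugbp1 siRNA by 0.59 ± 0.04 (log2, SE; limma adjusted p = 0.00018). Under Mbnl1 siRNA the difference from control was -0.08, with a 95% interval from -0.18 to 0.02 (adjusted p = 0.164). Leaving out each of the 9 arrays in turn gave -0.12 to -0.04, and Gclm was called lower in 1 of these fits. The direct difference between the knockdowns was -0.67 ± 0.04 (adjusted p = 1.2e-05).

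Gclc read 2344, 2032 and 1403 over the 3 times with control siRNA. Under Cugbp1 siRNA it read 3052, 2726 and 2154, and under Mbnl1 siRNA 2930, 2486 and 1679. Both knockdown arms were above control at every time, but the arms overlapped, since Gclc was lower at later times in each of them. The differences were 0.47 ± 0.06 (adjusted p = 0.00169) and 0.29 ± 0.06 (adjusted p = 0.00348) for Cugbp1 and Mbnl1 siRNA. Mbnl1 minus Cugbp1 was -0.18 (adjusted p = 0.0271), a call that was lost without any of 4 single arrays, those of both knockdown arms at 2.5 and 5 h. Gsr, glutathione reductase, which returns oxidised glutathione to its reduced form, read 5094 to 5439 with control siRNA, 5239 to 5786 under Cugbp1 siRNA and 4835 to 5084 under Mbnl1 siRNA. It was not called against control for either siRNA (differences of 0.08 and -0.10). All Mbnl1 arrays lay below all control arrays, and the -0.10 was called with a filter at the 75th percentile (adjusted p = 0.03), with limma-trend (0.0118) and without the Mbnl1 array at 0 h (0.0448). The 2 knockdowns differed in Gsr by -0.18 ± 0.04 (adjusted p = 0.00558).

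Nqo1, a quinone reductase and a standard readout of Nrf2 activity, was not called against control under either siRNA. Its intensities were 4795, 5609 and 6324 with control siRNA, 5085, 5669 and 6385 under Cugbp1 siRNA and 5000, 5604 and 6086 under Mbnl1 siRNA. At each time the 3 arms lay close together. The difference from control was 0.04 (95% interval -0.05 to 0.12) under Cugbp1 siRNA and 0.00 (-0.08 to 0.09) under Mbnl1 siRNA. Both intervals lie below the Hmox1 differences, but they do not cover variation between cultures.

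Srxn1, sulfiredoxin, which restores over-oxidised peroxiredoxins, read 3582 to 3755 with control siRNA, 3761 to 3880 under Cugbp1 siRNA and 3701 to 4286 under Mbnl1 siRNA. The Cugbp1 arrays all lay above the control arrays, yet the difference of 0.07 (95% interval -0.06 to 0.19) was not called. The highest value, 4286, was the single Mbnl1 array at 0 h. Txnrd1, thioredoxin reductase, read 3284, 3436 and 3315 with control siRNA, 3587, 3731 and 3587 under Cugbp1 siRNA and 3436, 3418 and 3297 under Mbnl1 siRNA. It was higher under Cugbp1 siRNA by 0.12 ± 0.03 (limma adjusted p = 0.0478), which is next to the threshold. That call was lost when any of 8 of the 9 arrays was left out, all but the Mbnl1 array at 0 h, and also without a filter on low values, with equal ribosomal protein medians and with the 6 arrays of the 2 arms alone. Between the knockdowns Txnrd1 differed by -0.10 (adjusted p = 0.0346), a call lost without any of 7 of the arrays, all but the control and Mbnl1 arrays at 0 h.

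Osgin1, an oxidative-stress-induced growth inhibitor, was higher under Mbnl1 siRNA. It read 733, 382 and 383 over the 3 times with control siRNA, 785, 437 and 500.0 under Cugbp1 siRNA, and 1244, 506 and 506 under Mbnl1 siRNA. At each time it was highest in the Mbnl1 arm, with the widest gap at 0 h, and the arms overlapped because the level at 0 h stood above the later ones in all of them. The difference from control was 0.52 ± 0.10 (adjusted p = 0.00346) under Mbnl1 siRNA and 0.23 ± 0.10 (adjusted p = 0.177) under Cugbp1 siRNA. The Cugbp1 difference was called with the 6 arrays of the 2 arms alone (adjusted p = 0.0473) and without the Mbnl1 array at 0 h (0.0351). Mbnl1 minus Cugbp1 was 0.30 ± 0.10 (adjusted p = 0.0404), and this call was lost without any of 7 arrays, all but the Cugbp1 and Mbnl1 arrays at 5 h. At 0 h alone, with no test, the same difference was 0.66.

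The messenger RNAs of Nrf2 and of its sensor differed from control by no more than 0.21 (log2) in either arm. Nfe2l2 read 5151, 3986 and 3367 with control siRNA, 5085, 3972 and 3104 under Cugbp1 siRNA and 5493, 4513 and 3743 under Mbnl1 siRNA. At every time the Mbnl1 array was the highest. Nfe2l2 differed from control by -0.05 (95% interval -0.14 to 0.05) under Cugbp1 siRNA, which was not called, and was higher by 0.14 ± 0.04 (adjusted p = 0.0201) under Mbnl1 siRNA. The latter call was lost without a filter on low values and without any of 4 single arrays, the control arrays at 0 and 2.5 h and the Mbnl1 arrays at 2.5 and 5 h. Keap1 read 584, 592 and 536 with control siRNA, 622, 538 and 529 under Cugbp1 siRNA and 516, 504 and 462 under Mbnl1 siRNA. All Mbnl1 arrays lay below all others. Keap1 differed by -0.21 ± 0.05 on the log2 scale under Mbnl1 siRNA (adjusted p = 0.00662), while its difference of -0.02 under Cugbp1 siRNA was not called. These are messenger RNA levels, and Nrf2 activity is set mainly on the protein, which was not measured here.

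Against control, 4 of the 10 genes were higher and 0 lower under Cugbp1 siRNA (Hmox1, Gclm, Gclc and Txnrd1), where 19.2% of all tested genes were called, 10.5% higher and 8.67% lower. Under Mbnl1 siRNA 4 were higher (Hmox1, Osgin1, Gclc and Nfe2l2) and 1 lower (Keap1). That is close to the background of this comparison, in which 55% of genes were called, 24% higher and 31% lower. Between the knockdowns, 2 genes (Osgin1 and Nfe2l2) were higher and 6 lower with Mbnl1 than with Cugbp1 siRNA, against 23% and 33.4% of all genes (56.4% together). That number of 8 called genes was 5 without the Cugbp1 or without the Mbnl1 array at 2.5 h. Arrays of the 2 arms did not overlap for 4 of the 10 genes in Cugbp1 against control (16.2% of all genes), for 3 in Mbnl1 against control (34.9%) and for 5 in Mbnl1 against Cugbp1 (35.2%). Hmox1 and Gclc were the genes called above control in both arms, which share the control arrays.

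**Figure D2:**
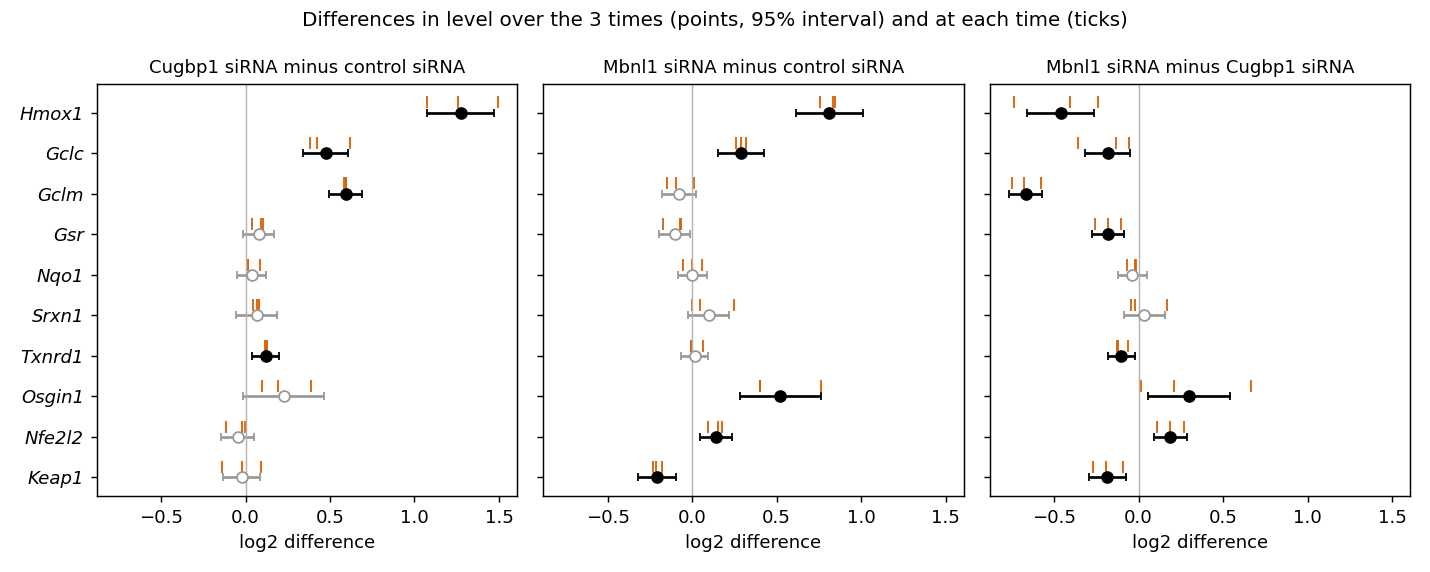
Difference in mean log2 RMA intensity (x axis) for each of the 10 genes (y axis) in the 3 comparisons of siRNA arms; points are limma estimates over 3 arrays per arm, filled where called, bars their 95% intervals and ticks the difference at each time. Hmox1 stands farthest from 0 in the left panel at 1.27, and Gclm at 0.59 there is at -0.08 in the Mbnl1 panel.

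A wider list of antioxidant genes, without the 10 described so far, was counted in the same fits: 74 of its 90 genes were tested. Under Cugbp1 siRNA 33 were higher and 1 lower than control, and the median difference was 0.11 (log2) against 0.01 over all tested genes, of which 10.5% were higher. Gsta3 and Slc40a1 passed the filter on low values only through an arm where they are high, and without them 31 were higher and 1 lower of 72. The count of 34 was 20 without the control array at 2.5 h, and also 20 without the Cugbp1 array at 2.5 h. Over all genes 1894 were called, and 742 and 759 without these arrays in turn. Equal ribosomal protein medians gave 32 higher and 1 lower, where 10.1% of all genes were higher and 6.61% lower.

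In the glutathione synthesis and transport group 3 of 5 genes were higher under Cugbp1 siRNA and 1 was lower, where 10.5% and 8.67% of all genes were. Slc7a11, the cystine carrier that supplies cysteine for glutathione, was higher by 0.86 (adjusted p = 4.24e-05), with 3 of 3 times in that direction. Abcc4, an efflux transporter, was higher by 0.72 and Slc3a2, the heavy chain that pairs with Slc7a11, by 0.35, while Abcc1, an exporter of glutathione conjugates, was lower with a difference of -0.25. Among glutathione transferases and peroxidases 7 of 13 were higher and 0 lower, with the transferases Mgst2 at 0.49, Gstm1 at 0.37 and Gstm5 at 0.26. Gsta3 differed by 0.60, but it passed the filter only through its Cugbp1 arrays, which read 224 to 272 against 149 to 182 with control siRNA. Detoxification genes had the highest share, 8 of 9, with Aox1, aldehyde oxidase, at 0.56, Cbr3, a carbonyl reductase, at 0.48, Ephx1, an epoxide hydrolase, at 0.46 and Aldh3a1, an aldehyde dehydrogenase, at 0.35. Of the NADPH suppliers 4 of 5 were higher, with Tkt, transketolase of the pentose phosphate pathway, at 0.51, Pgd at 0.23, Taldo1 at 0.22 and Idh1 at 0.21.

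Of 11 genes of haem and iron handling 6 were higher under Cugbp1 siRNA, where 10.5% of all genes were. They include Blvrb, a biliverdin reductase, at 0.43, Alas1, the first enzyme of haem synthesis, at 0.36, and Tfrc, the transferrin receptor, at 0.32. Blvra, the other biliverdin reductase of the list, differed by -0.03 and was not called. Slc40a1, the iron exporter, was higher by 0.78, but its control arrays read 115 to 146, below the intensity of 167.1 that the filter used. The ferritin genes Fth1 and Ftl1, also classical Nrf2 targets and named here after their values were seen, differed by 0.02 and 0.03 and were not called. Of superoxide and peroxide removal 2 of 3 were higher (Cat, catalase, at 0.40 and Sod2 at 0.16). In the thioredoxin and peroxiredoxin group 2 of 12 were higher, Sesn2, a stress-induced sestrin, at 0.37 and Glrx, glutaredoxin, at 0.26. The regulators stood at 1 of 14, the adaptor Sqstm1 at 0.13, and 0 of 2 metallothioneins were called. Among regulators not called, Bach1 differed by -0.13, Maff by -0.14, Mafg by -0.04, Mafk by 0.20, Nfe2l1 by 0.11 and Cul3, the ligase scaffold that works with Keap1, by -0.04.

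Under Mbnl1 siRNA 33 of the 74 genes were higher and 12 lower than control, with a median of 0.08 (log2) against -0.02 over all tested genes, of which 24% were higher and 31% lower. Without Gsta3 and Slc40a1 the counts were 32 and 11 of 72. The glutathione synthesis and transport group held 4 higher and 1 lower of 5: Slc3a2 was higher by 0.76, Gss, glutathione synthetase, by 0.71, Abcc4 by 0.42 and Slc7a11 by 0.36. Abcc1 was lower, with a difference of -0.13. Among transferases and peroxidases 6 were higher and 2 lower of 13, with Gsto1 at 0.68, Gpx3 at 0.43, Gpx8 at -0.30 and Gpx1 at 0.27. Detoxification genes were 4 higher and 2 lower of 9, with Cbr1 at 0.70, Ephx1 at -0.23, Cbr3 at 0.23 and Nqo2 at -0.21. NADPH supply had 1 of 5 higher, Taldo1 at 0.37.

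Of the regulators, 10 of 14 were higher under Mbnl1 siRNA and 1 was lower, where 24% and 31% of all genes were. Mafk and Maff, small Maf partners of Nrf2 and Bach1, were higher by 0.44 and 0.28, Mafg by 0.17, Bach1 by 0.42, Syvn1, a ubiquitin ligase of the endoplasmic reticulum, by 0.44, and Nfe2l1, a relative of Nrf2, by 0.27. Crebbp, a coactivator, was lower at -0.28, and Cul3 differed by 0.01 without a call. Both metallothioneins were higher, Mt1 by 0.51 and Mt2 by 0.54. Haem and iron genes were split with 3 higher (Alas1 at 0.43, Blvrb at 0.37, and Slc40a1 at 0.95, which passed the filter only through its Mbnl1 arrays) and 3 lower (Fech, which inserts iron into haem, at -0.26, and 2 others). In the thioredoxin group 2 were higher and 3 lower of 12, led by Txnip, an inhibitor of thioredoxin, at -0.56, Glrx at 0.42 and Prdx4 at -0.32. Of superoxide and peroxide removal 1 of 3 was higher, Cat at 0.25. The share called was 54.55% for haem and iron genes and 41.67% for the thioredoxin group, not above the 55% of all genes.

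Marker genes of other cell types also differed in the Mbnl1 arm. The summed intensity of 7 macrophage markers was 851 to 868 in the control arrays, 859 to 938 in the Cugbp1 arrays and 1199 to 1414 in the Mbnl1 arrays. Only Cd14 and Cd68 were above the filter, and Adgre1, Csf1r, Ptprc, Lyz2 and Tyrobp lay below it in this cell line. Cd68, a lysosomal protein, read 332 to 395 with control siRNA, 395 to 467 under Cugbp1 siRNA and 723 to 908 under Mbnl1 siRNA, while Cd14 read 198 to 259, 203 to 213 and 191 to 207. The sum for 6 markers of differentiated muscle was 1623 to 1902 with control siRNA, 1825 to 1972 under Cugbp1 siRNA and 2707 to 2998 under Mbnl1 siRNA. The 5 fibroblast markers summed to 4998 to 5365, 4628 to 4889 and 5768 to 5907 in the same order. Of these, Dcn, decorin, read 931 to 1126 with control and 2182 to 2214 under Mbnl1 siRNA. The other fibroblast markers above the filter were lower than control there at each time. Col1a1, a collagen chain, read 1016 to 1116 with control and 721 to 829 under Mbnl1 siRNA. Col1a2 read 2554 to 2681 and 2440 to 2519, and Pdgfra 319 to 323 and 249 to 286. The 6 myoblast markers summed to 19990 to 20520, 19310 to 20650 and 18920 to 19180, with Cdh15, M-cadherin, at 2797 to 2822 with control and 1771 to 2026 under Mbnl1 siRNA. Myod1, Des and Myog were also lower than control there at each time. Chrna1 went the other way, at 5905 to 6221 with control and 6340 to 7122 under Mbnl1 siRNA. Myf5 was lower at 0 h and higher at the later times. The part of these shifts, and of the lower Celf1 in the Mbnl1 arm, in the antioxidant results was not tested. In a culture, fewer cells of a kind and less RNA per cell cannot be told apart.

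Set against each other, the knockdowns differed for 49 of the 74 genes, 20 higher and 29 lower with Mbnl1 than with Cugbp1 siRNA, where 23% and 33.4% of all genes were. Regulators were 7 higher and 2 lower of 14, led by Bach1 at 0.55 and Maff at 0.42. Detoxification genes were 1 higher and 6 lower of 9, with Ephx1 at -0.69, Aox1 at -0.43 and Cbr1 at 0.41. Transferases and peroxidases were even at 5 and 5, with Mgst2 at -0.49, Gsto1 at 0.43 and Gpx8 at -0.40. Gsta3 was at -0.85, with its Mbnl1 arrays at 122 to 166, below the filter. Glutathione synthesis and transport genes were 3 higher and 2 lower of 5. Slc7a11 was -0.50 and Gss 0.66, so Slc7a11 stood higher in the Cugbp1 arm and the synthetase higher in the Mbnl1 arm. Slc3a2, the chain that pairs with Slc7a11, went the other way, at 0.76 above control under Mbnl1 siRNA and 0.35 under Cugbp1 siRNA. Mt2 and Mt1 were at 0.49 and 0.43.

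**Figure D3:**
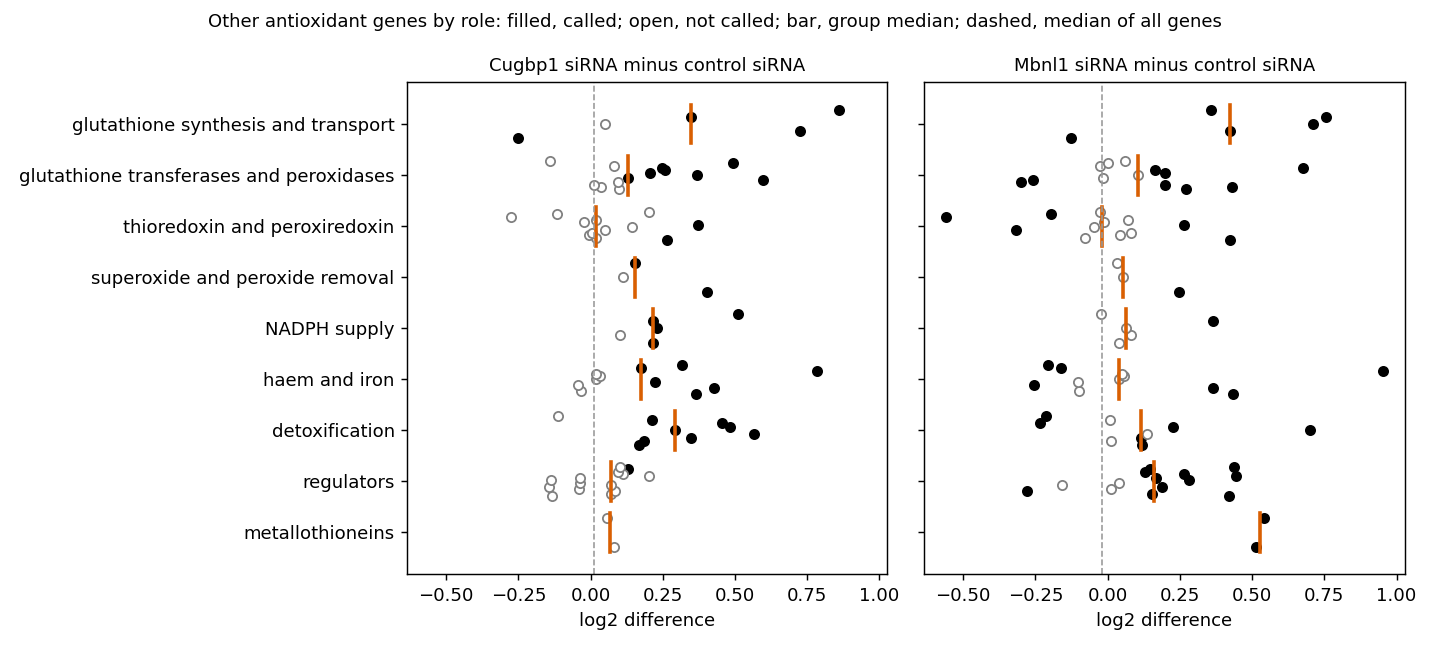
Difference from control in mean log2 RMA intensity (x axis) for the 74 further antioxidant genes, grouped by role (y axis), under Cugbp1 siRNA and under Mbnl1 siRNA; 1 point per gene, filled where called by limma, with the group median as a bar and the median of all tested genes as a dashed line. Of the detoxification genes 8 of 9 lie above 0 under Cugbp1 siRNA, with a group median of 0.29, and regulators have a median of 0.07 there and a median of 0.16 under Mbnl1 siRNA.

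After actinomycin D the genes separated by time course. These changes are relative to the other transcripts, because RMA gives all arrays a common distribution. The size of the RNA pool was not measured here. Making the medians of 56 ribosomal protein genes equal shifts every gene by -0.14 at 2.5 h and -0.23 at 5 h on the log2 scale. Between 0 and 5 h, averaged over the 3 arms, 2 of the 10 genes rose and 4 fell, against 35.6% and 32.8% of all genes (68.4% together). With equal ribosomal medians 0 rose and 8 fell, against 3.76% and 61.9% of all genes. At 2.5 h 2 rose and 3 fell, where 23.1% and 24.2% of all genes did (47.4% together). With equal ribosomal medians 0 rose and 6 fell at 2.5 h, against 1.92% and 43% of all genes.

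Osgin1 fell in the first interval. It was at 52.1% of its own 0 h level with control siRNA after 2.5 h, at 55.6% under Cugbp1 siRNA and at 40.7% under Mbnl1 siRNA, and at 5 h it stood at 52.2%, 63.7% and 40.7%. The change was -1.03 at 2.5 h (limma adjusted p = 0.000155) and -0.96 at 5 h (adjusted p = 0.000104), so the mean level did not fall further after 2.5 h. Gclc and Nfe2l2 fell further after 2.5 h. At 2.5 h the change was -0.34 for Nfe2l2 and only -0.20 for Gclc, whose call at that time was lost without any of 5 arrays. Gclc was at 59.9%, 70.6% and 57.3% after 5 h with control, Cugbp1 and Mbnl1 siRNA (change -0.68, adjusted p = 2.6e-05), and Nfe2l2 at 65.4%, 61.0% and 68.1% (change -0.63, adjusted p = 6e-06). Keap1 fell by 0.17 (adjusted p = 0.0123), a call lost without the Cugbp1 array at 0 h. These 4 genes also fell with equal ribosomal medians, but that scaling lowers every gene at both later times and could not have turned a fall into a rise.

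Nqo1 rose in relative level, to 131.9%, 125.6% and 121.7% of its 0 h value at 5 h in the control, Cugbp1 and Mbnl1 arms (change 0.34, adjusted p = 0.00011), but with equal ribosomal medians the change was 0.11 and no longer called (adjusted p = 0.0587). Gclm rose by 0.15 (adjusted p = 0.0138), and with equal ribosomal medians it turned to -0.08 without a call (adjusted p = 0.189). Its call also ended without any of 4 arrays, the control and Cugbp1 arrays at 0 and 5 h. Hmox1 was at 84.4% of its 0 h level with control siRNA, at 113% under Cugbp1 siRNA and at 80.0% under Mbnl1 siRNA after 5 h. Its mean change of -0.13 was not called, and with equal ribosomal medians it was -0.36 and called (adjusted p = 0.00748). Leaving out each of the 9 arrays in turn, as deposited, gave -0.25 to -0.05, and the change was called in 2 of these fits. Gsr, Srxn1 and Txnrd1 were not called at 5 h as deposited, and fell with equal ribosomal medians; for Gsr the sign turned with that scaling, from 0.08 to -0.155.

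Of the 74 wider genes 45 rose and 18 fell in relative level at 5 h, where 35.6% and 32.8% of all genes did. With equal ribosomal medians 9 rose and 29 fell, where 3.76% and 61.9% of all genes did. The regulators went down under both scalings, with 10 of 14 fallen and 1 risen (Rbx1) as deposited and 13 fallen and 0 risen with equal ribosomal medians, a scaling under which most genes fell. Syvn1 fell by 1.17, Bach1 by 1.10, the coactivator Ep300 by 0.93 and Mafk by 0.86 on the log2 scale. Cul3 fell by 0.26 and Mafg by 0.18, and Maff (0.06) and Nfe2l1 (-0.10, adjusted p = 0.0499) lay on opposite sides of the threshold. With equal ribosomal medians Maff fell by 0.17, and Rbx1 turned to -0.04 without a call. All 13 transferases and peroxidases rose as deposited, and 3 rose and 0 fell with equal ribosomal medians. Among the thioredoxin group Txnip fell by 1.79, Sesn1 by 1.22 and Sesn2 by 1.05. Hmox2 fell by 0.24, and Slc7a11 rose by 0.12 (adjusted p = 0.0334), which turned to -0.11 without a call (adjusted p = 0.0641) with equal ribosomal medians.

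**Figure D4:**
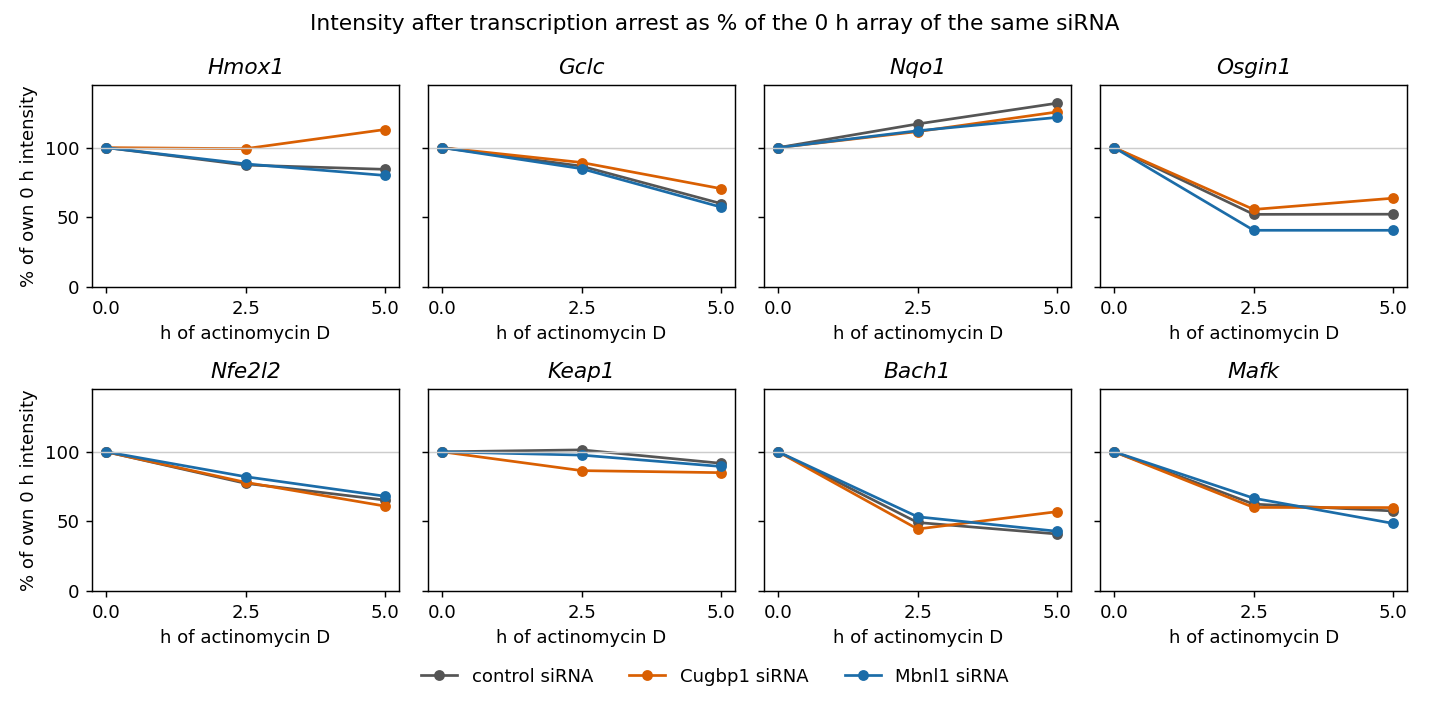
Intensity as a percentage of the same arm's 0 h array (y axis) against hours after actinomycin D (x axis) for 8 genes, 1 line per siRNA and 1 array per point. Osgin1 is at 40.7% to 55.6% by 2.5 h, Nqo1 climbs to 121.7% to 131.9% at 5 h, and Hmox1 ends at 113% under Cugbp1 siRNA against 80.0% and 84.4% in the other arms.

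Decay was compared as the difference in log2 change per hour between a knockdown arm and the control arm. For Hmox1 the difference was 0.08 ± 0.02 per h (SE; 95% interval 0.04 to 0.13) under Cugbp1 siRNA and -0.02 (-0.06 to 0.03) under Mbnl1 siRNA, with limma adjusted p of 0.320 and 0.764. None of the 10 genes was called in either comparison, in which 0 (0%) and 2 (0.0203%) of the 9864 genes were called. At an unadjusted p under 0.05 there were 3 of the 10 in the Cugbp1 comparison (Hmox1, Gclc and Osgin1, each with a higher slope than in control, which for Hmox1 was 0.04 against -0.05 per h), where 11.4% of all genes passed, and 1 in the Mbnl1 comparison (Osgin1), where 13.8% did. A straight line in hours in every arm gave 0 called genes in both, and limma-trend gave 6 and 192, with 0 of the 10 among them. The number of genes called in the Mbnl1 comparison was 203 without the Mbnl1 array at 2.5 h and 7 without that at 5 h. It was 0 without any of the Cugbp1 arrays, the control arrays at 0 and 5 h or the Mbnl1 array at 0 h. The fit has 2 residual degrees of freedom, and a slope difference of the size found for Hmox1 did not pass at this precision.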

How the data were processed

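The submitters' processing notes name RMA in Affymetrix Expression Console, with versions not given in the sources used here. Per the labels' protocols, 100 ng of total RNA was labelled for whole-transcript sense arrays. The deposited values are RMA intensity on a linear scale, as read from the values, and log2 was taken here with no pseudocount. RMA gives arrays a common distribution, so changes are relative to other transcripts.

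Of 35556 probe sets, 21789 carry 1 gene symbol. A probe set was dropped when its mean log2 lay under the 50th percentile of the named ones (7.385, intensity 167.1), and the brightest of those left represented its gene, for 9864 of 19938 genes. limma 3.58.1 in R 4.3.3 (lmFit, eBayes) was fitted to siRNA and time as factors (4 residual degrees of freedom). For decay, a line in hours per knockdown arm was added (2 residual degrees of freedom). P-values were Benjamini-Hochberg adjusted over all tested genes. The fits were tested on simulated data.

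Named genes are the 10 members, up to 4 called genes with the largest difference in each group of the wider list, 8 regulators and related genes in any case, the 5 genes most correlated with Hmox1, and the siRNA targets. Members and lists were chosen with earlier results of these data known. Promoter windows are RefSeq's (GRCm38.p6), matched by symbol. Alternatives were the filter, the mean of a gene's probe sets, equal ribosomal protein medians, limma-trend, robust eBayes, fewer arms or times, straight lines, and leaving out each array. The number of arrays limits the precision.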

Additional observations from a re-analysis of the deposited data

Results flagged for a closer look

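Txnrd1 changed by -0.0595 (log2) from 0 to 5 h under Mbnl1 siRNA, and both later arrays of that arm lay below the 0 h array, while with control siRNA both later arrays lay above it. The difference between the arms was not tested for these values alone, and each rests on single arrays.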

How the results depend on the processing

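With 1 array per condition, the culture-to-culture spread is unknown, and RMA hides any change shared by all transcripts. For the 10 genes, 506 single-gene values under alternatives other than leaving out an array were compared with the main value, and 12 had the opposite sign, 5 of them values with no test. With equal ribosomal protein medians Gclm reversed to -0.0104 at 2.5 h and -0.0798 at 5 h, and Gsr to -0.155 at 5 h. Values that were not called also changed sign with these medians: Gsr to -0.05 and Txnrd1 to -0.10 at 2.5 h, and the Cugbp1 decay differences of Srxn1 and Txnrd1, both within 0.01 of 0. At 0 h alone Keap1 differed by 0.09 under Cugbp1 siRNA and Gclm by 0.01 under Mbnl1 siRNA, and in the control arm alone Srxn1 changed by 0.06 and Keap1 by 0.02 at 2.5 h and Txnrd1 by 0.01 at 5 h. With equal ribosomal medians the wider list had 22 of 74 called at 2.5 h, where 1.92% of all genes were higher and 43% lower. At 5 h it had 38 called, where 3.76% of all genes were higher and 61.9% lower. As deposited it had 43 and 63 called, against 47.4% and 68.4% of all genes. At 0 h alone Hmox1 differed by 1.07 under Cugbp1 siRNA and by -0.24 between the knockdowns. Without a filter 969 genes were called for Cugbp1 against control (1894 with it), 5 of the 10 between the knockdowns (8 with it; also 5 with the 6 arrays of these arms) and 3 of the 10 at 2.5 h (5 with it). A filter at the 75th percentile, which tests fewer genes, gave 3197 called genes for Mbnl1 against control and 3173 between the knockdowns (5426 and 5563 with the main filter). At 2.5 h it gave 2609 and at 5 h 3508 (4674 and 6746 with the main filter). For decay, the Cugbp1 count of 0 became 3 (75th percentile) and 6 (limma-trend). The Mbnl1 count of 2 became 0 (no filter, or straight lines), 82 (75th percentile), 21 (mean of probe sets), 30 (ribosomal medians) and 192 (limma-trend), with 1 and 2 of the wider list at the 75th percentile and with limma-trend. Leaving out each array gave 742 to 2027 genes and 20 to 37 of the wider list for Cugbp1 against control, 5 to 7 of the 10 between the knockdowns, 3 to 5 of the 10 at 2.5 h and 0 to 203 genes for Mbnl1 decay. Hmox1 stayed called in each, at 1.15 to 1.38 (Cugbp1), 0.75 to 0.90 (Mbnl1) and -0.57 to -0.34 (between them). The causes of these changes were not tested. Arrays are matched by time across the arms, and the fit holds time as a factor, so no further block was added.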

Other observations

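Among all 9864 tested genes, those whose log2 levels correlated most with Hmox1 over the 9 arrays were Mosmo (Pearson r = 0.989), H2bc4 (0.983), Lama2 (0.977), Tmx4 (0.967) and Slc1a4 (0.963). These correlations describe arrays that share siRNA arms, and none of the other 9 antioxidant genes is among the 5. H2bc4, a histone H2B gene, read 1240 to 1273 with control siRNA, 3705 to 4212 under Cugbp1 siRNA and 2732 to 2835 under Mbnl1 siRNA. Slc1a4, a neutral amino acid carrier, read 735 to 836, 1066 to 1150 and 954 to 1111 in the same order.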
